A study of Homo sapiens with 79 samples.

Results

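RNA recovered with phospho-CBX3 was compared directly with RNA recovered with total CBX3 in 6 fRIP libraries, 3 per target, of the 79 libraries in the series. The 6 were chosen by the target named in the sample titles, and the others comprise fRIP libraries of the remaining 22 proteins and 9 libraries of input RNA. Every library came from K562, an established human erythroleukemia line that grows in suspension, with no further treatment named in the labels. The fRIP method fixes live cells mildly with formaldehyde, breaks them by sonication, pulls down 1 protein with its antibody and sequences the RNA that comes with it. The CBX3 libraries were made with a Millipore antibody and the phospho-CBX3 libraries with a Cell Signaling antibody, so the form of the protein and the antibody cannot be told apart. By the study's methods the replicates of a target were made on different dates from different lysates.

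CBX3, also called HP1 gamma, is a heterochromatin protein 1 family member whose chromodomain binds histone H3 methylated on lysine 9. It is found in silent chromatin and also over the bodies of active genes, where it has been linked to transcription and splicing, and its phosphorylation has been linked to a place in euchromatin. An intron that stays in an otherwise processed transcript is called retained, and transcripts of this kind are often kept in the nucleus or degraded.

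Values are FPKM (fragments per kilobase of transcript scaled to the mapped fragments of a library), so they are shares, and a gain of some RNAs and a loss of all others look alike. In such bulk material fewer cells carrying an RNA and less of it per cell cannot be told apart either. In genes with 1 isoform, 1 fragment per kilobase was worth 0.0953, 0.0866 and 0.0638 FPKM in the phospho-CBX3 libraries and 0.0705, 0.0690 and 0.0888 FPKM in the CBX3 libraries, so 5 FPKM rested on 52.5 to 78.4 fragments per kilobase. Between 15825 and 16173 genes reached 1 FPKM in the phospho-CBX3 libraries, and 16688 to 16980 did in the CBX3 libraries. Of 10 erythroleukemia markers, 9 were at 1 FPKM or more in all 6 libraries and the tenth, the embryonic globin HBZ, ranged from 0.895 to 4.25 FPKM. Of 8 markers of other cell types, 1 was at 1 FPKM or more in all 6, KRT5 was at 0 in all 6 and PECAM1 had no row. Across genes, Pearson correlations of log2(FPKM + 1) were 0.958 to 0.968 within phospho-CBX3, 0.967 to 0.975 within CBX3 and 0.949 to 0.966 between a library of each. The same 6 libraries correlated with the other fRIP libraries at a mean of 0.912 (0.769 to 0.967).

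More genes were lower than higher in phospho-CBX3 fRIP. Among 25442 genes tested, 622 were called lower (2.44%) and 89 higher (0.35%) by limma with Benjamini-Hochberg adjusted p under 0.05 and a log2 difference beyond 1. Called lower were 281 of 13605 mRNA genes, 185 of 5359 lncRNA genes and 132 of 5247 pseudogenes. Called higher were 42 mRNA genes, 15 lncRNA genes and 19 pseudogenes. The median log2 difference over all genes was -0.08. Centring each library on the median of its tested genes moved that median by 0.20 to 0.12 and the calls to 256 lower and 218 higher, so that higher calls made up 46.0% of all calls in place of 12.5%. The numbers called in each direction thus depended on how libraries were scaled. A fit of only the 6 libraries called 236 genes lower and 34 higher, and that fit with the replicate number as a block called 0. The 3 libraries of each target did not overlap in 593 of the 622 genes called lower and in 80 of the 89 called higher. Over all genes tested, 4706 were lower in every phospho-CBX3 library than in every CBX3 library (18.5%), and 2046 were higher (8.04%).

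Isoforms that hold retained introns were the transcripts most often lower in phospho-CBX3 fRIP. Of 104506 isoforms tested, 7376 were called lower (7.06%) and 1088 higher (1.04%) by the same limma fit. Isoforms annotated as retained intron supplied 4215 of the lower calls, which is 57.1% of them, and 49 of the higher calls. These 4215 were 21.7% of the 19390 retained intron isoforms tested, against 3.71% of all other isoforms. Protein coding isoforms supplied 59.6% of the higher calls, with 648 of 42461 called higher (1.53%) and 1342 called lower (3.16%). Isoforms of coding genes without a defined coding sequence were lower in 812 of 13744 cases (5.91%), and isoforms annotated for nonsense-mediated decay, a pathway that degrades messages with early stop codons, in 325 of 8351 (3.89%). The median log2 difference was -0.59 for retained intron isoforms and 0.00 for protein coding isoforms. After centring on the median of tested features, 2022 retained intron isoforms were lower and 129 higher, and the medians were -0.30 for them and 0.16 over all isoforms. The same centring turned the balance of protein coding isoforms round, to 1865 higher and 555 lower with a median of 0.29. Without phospho-CBX3 replicate 2, the smallest count of any left-out library, 3203 retained intron isoforms were called lower. A pseudocount of 0.1 FPKM gave 2759, the fit of only the 6 libraries 1163 (6.00%), and that fit with the replicate number as a block 0.

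**Figure D1:**
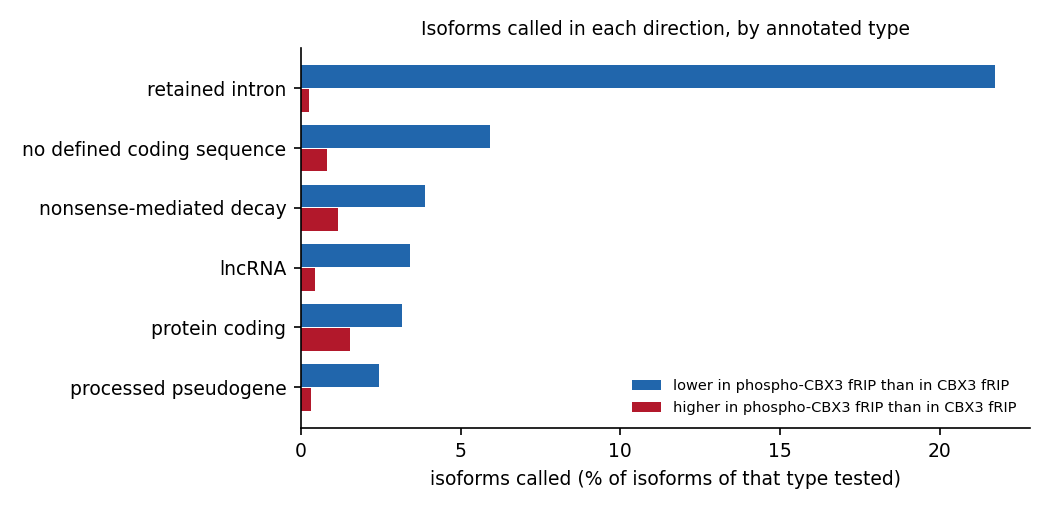
Share of the isoforms of each annotated type that were called lower (blue) or higher (red) in phospho-CBX3 fRIP than in CBX3 fRIP, as a percentage of the isoforms of that type tested (horizontal axis). The retained intron bar for lower calls reaches 21.7%, and the next type, isoforms without a defined coding sequence, reaches 5.91%.

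A total of 2428 genes had at least 1 retained intron isoform called lower. As whole genes, 177 of these were called lower (7.29%, beside 2.44% of all genes) and 3 higher, and their median log2 difference was -0.36, beside -0.08 over all genes. Of 467 genes with a protein coding isoform called higher and a retained intron isoform tested, 251 had a retained intron isoform called lower (53.7%), beside 37.4% of all 6380 genes with both kinds tested. The difference was also measured inside genes, as the share of a gene's FPKM that lies in its retained intron isoforms. This share does not depend on how a library is scaled. It was taken in 5873 genes that have a protein coding and a retained intron isoform and at least 5 FPKM over the 6 libraries.

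The median share over genes was 14%, 13.0% and 13.6% in the phospho-CBX3 libraries and 22.7%, 24.5% and 23.3% in the CBX3 libraries. All 3 phospho-CBX3 libraries were below all 3 CBX3 libraries, at 13.5% ± 0.48 against 23.5% ± 0.91 (SD, n = 3 each), a difference of -10.0 percentage points with an exact two-sided permutation p of 0.1, the smallest that 3 against 3 libraries can give. Leaving out each library in turn gave -10.4 to -9.52 points. The mean share differed by -9.04 points. In 3220 genes (54.8%) the share was lower in every phospho-CBX3 library than in every CBX3 library, and in 56 genes (0.954%) it was higher. By group means it was lower in 5261 genes (89.6%), by over 10 points in 2389, while 43 genes were over 10 points higher. The retained intron isoforms of these genes had a median log2 difference of -0.72 and their protein coding isoforms one of 0.12. In the sum over all isoforms of a library, retained intron isoforms took 12.2%, 10.6% and 12% of FPKM in phospho-CBX3 fRIP against 19.0%, 20.9% and 19.8% in CBX3 fRIP, and protein coding isoforms took 56.8%, 56.9% and 58.7% against 49.4%, 48.1% and 49.8%. Ordered by this summed share among the 24 proteins, CBX3 (mean 19.9%) came after SUZ12 (21.6%) and CBP (20.1%), and phospho-CBX3 (11.6%) came further down, beside HNRNPU (11.7%) and CHD7 (11.4%). The libraries of CBX3 overlapped with those of CBP, which ranged from 18.9% to 21.7%, and those of phospho-CBX3 with HNRNPU, CHD7, RBBP5, HUR and HDAC1.

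The lower share was found in gene groups with little and with much retained intron RNA. Cytosolic ribosomal protein mRNAs had among the lowest median shares, 5.31%, 4.18% and 6.25% in phospho-CBX3 fRIP against 11.6%, 14.4% and 12.5% in CBX3 fRIP, and 59 of 66 such genes were lower in every library. Respiratory chain mRNAs had group means of 6.18% and 14.6% (36 of 53 genes lower in every library), and translation factor mRNAs 5.59% and 14.8% (17 of 22). Higher shares were found for SR protein mRNAs, which encode splicing regulators, at 24.2% in phospho-CBX3 fRIP and 40.2% in CBX3 fRIP (8 of 11), and for a list of genes known for detained introns, which includes CLK kinases that phosphorylate SR proteins, at 31.1% and 47.4% (11 of 17). Between these stood proteasome mRNAs at 10.4% and 24.3% (19 of 28), hnRNP mRNAs at 11.3% and 23.6% (10 of 15), nucleoporin mRNAs at 11.1% and 22.9% (16 of 20), heat shock and chaperone mRNAs at 12.1% and 23.6% (16 of 22), and cholesterol synthesis and uptake mRNAs at 11.6% and 24.1% (16 of 19). The centrosome and kinesin mRNAs, at 10.1% and 19.5%, were lower in every library in 20 of 34 genes. For the HP1 and H3K9 methylation machinery the shares were 10.9% and 18.2% (12 of 19), and zinc finger mRNAs stood at 12.4% and 19.7% on chromosome 19 (24 of 61) and at 14% and 21.3% elsewhere (38 of 77). These counts stand beside 54.8% of all genes, from 39.3% for zinc finger mRNAs on chromosome 19 to 89.4% for ribosomal protein mRNAs, and were not tested against it. The 178 genes called lower as whole genes that could be assessed had shares of 39.5% and 52.1%, the highest of any group shown, and the 19 called higher had 2.58% and 8.31%, the lowest. In those 178 genes, which were chosen for being lower as whole genes, the retained intron isoforms were lower in 176 and the protein coding isoforms in 158, with median log2 differences of -1.43 and -0.64. Over all 5873 genes these counts were 5233 and 2234.

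**Figure D2:**
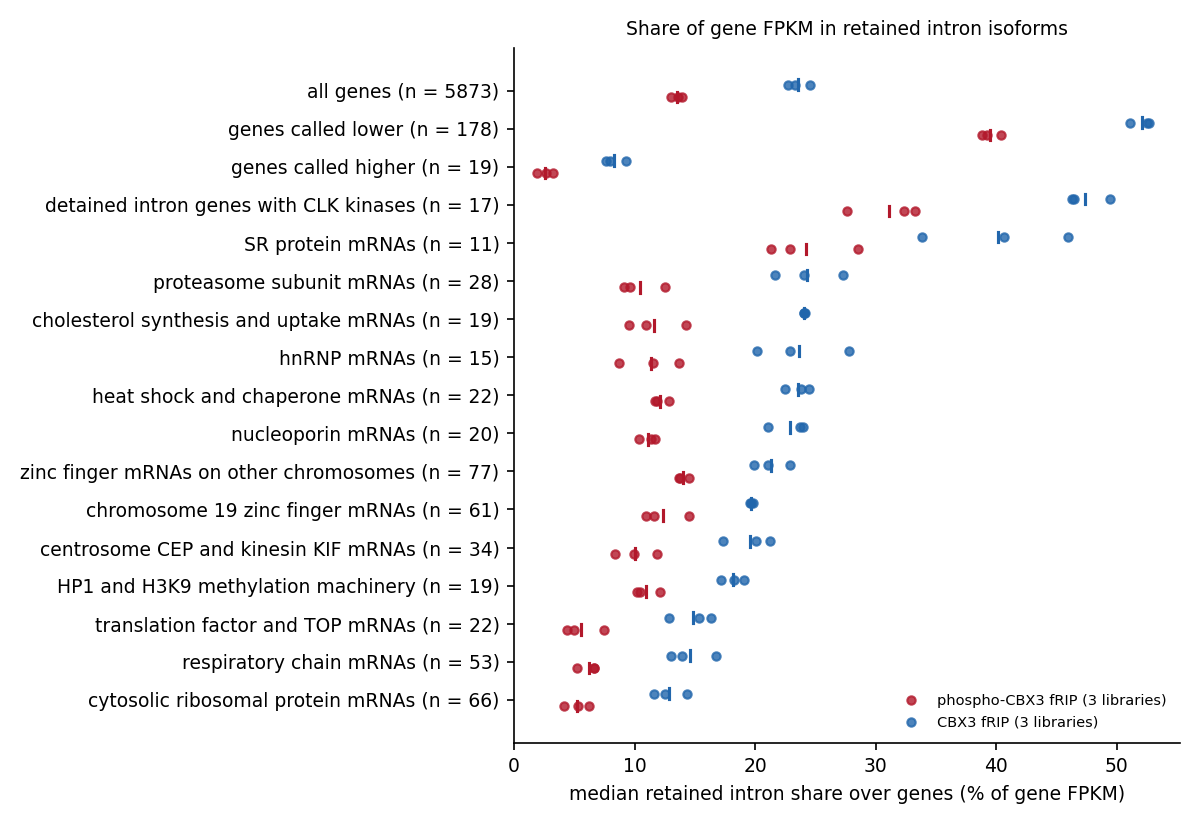
Median over genes of the share of gene FPKM in retained intron isoforms (horizontal axis, percent), for all genes and for groups of at least 10 genes. Each point is 1 library, red for phospho-CBX3 and blue for CBX3, and the bar is the mean of 3, and in each group shown every phospho-CBX3 library lies below every CBX3 library.

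Single genes show what the shift consisted of. For SREBF1, a transcription factor of cholesterol and fatty acid synthesis, retained intron isoforms took 50.0%, 48.1% and 41.9% of the gene in phospho-CBX3 fRIP and 67.7%, 71.7% and 69.9% in CBX3 fRIP. Its protein coding isoforms were at 39.1 FPKM and 37.7 FPKM on average, while its retained intron isoforms were at 55.5 FPKM and 173.8 FPKM, so the gap lay in the latter. HNRNPH1, which encodes a splicing regulator, had shares of 61.0%, 61.4% and 58.4% against 76.3%, 76.7% and 76.1%, with coding isoforms at 168 and 144 FPKM and retained intron isoforms at 354 and 667 FPKM. The heat shock protein gene HSPA9 had shares of 17.1%, 10.7% and 15.2% against 27.4%, 33.1% and 26.5%. In FAM136A the share was 24.4%, 24.5% and 18.6% in phospho-CBX3 fRIP against 56.3%, 79.7% and 69.9%, so that the main form of this gene differed between the targets. EEF1A1, the translation elongation factor, had 10.0%, 9.56% and 8.84% against 21.0%, 20.9% and 21.7%, although there the coding isoforms were the ones that differed, at 1220.4 against 546 FPKM, beside 128 against 147 FPKM of retained intron isoforms. CBX3 mRNA itself had little retained intron RNA, 2.54%, 2.14% and 2.94% against 4.13%, 7.30% and 6.36%. The groups did not overlap in any of these 6 genes. In other genes they did: PNISR, a gene of an SR-related protein, had shares of 48.7%, 41.8% and 47.6% against 49.4%, 48.6% and 52.0%, and SRSF11 had 13.0%, 16.1% and 12.5% against 17.1%, 14.9% and 14.2%.

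Isoforms that keep a whole intron of a coding isoform were lower most often. Such introns could be checked where the isoform had the same version in both annotations. Of 2829 retained intron isoforms that hold at least 1 complete intron, 1044 were called lower (36.9%) and 0 higher by limma, against 1642 of 9157 (17.9%) that hold none complete. The same held for isoforms carrying other labels. Protein coding isoforms that keep an intron of another coding isoform were lower in 119 of 631 cases (18.9%) against 361 of 8254 (4.37%), and isoforms without a defined coding sequence in 89 of 379 (23.5%) against 463 of 7515 (6.16%). Isoforms labelled for nonsense-mediated decay followed with 11 of 70 (15.7%) against 69 of 1977 (3.49%). The 4388 introns kept by the retained intron isoforms tested had a median length of 218 bases and a GC content of 57.5%. For the 1794 kept by isoforms called lower these were 201 bases and 58.3%. The other 32951 introns of the same genes were longer, with a median of 860 bases, and had a GC content of 51.1%.

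The splice sites of 3 kept introns are shown because the isoforms that hold them turn on these bases. They belong to genes of the SR protein and detained intron lists, and were picked after their values were seen. The choice was made among isoforms called lower, by the highest CBX3 mean with exactly 1 intron kept. Their lower values given below were thus a condition of the choice. Each line gives the last 10 bases of the exon and the first 20 of the intron (5′ site), or the last 20 of the intron and the first 10 of the next exon (3′ site), in GRCh37 (hg19), with the GT and AG that bound the intron in capitals.
CCNL1 5′ site: cagtttcgagGTaagcacagcggaggcggg
CCNL1 3′ site: tggctcatgggttctttcAGattgttgcta
SRSF5 5′ site: ttgtctgcagGTaacctggcctcattagag
SRSF5 3′ site: attgaattactttctaatAGgaagtactag
PNISR 5′ site: tgactatcagGTgaaagatattttgttgct
PNISR 3′ site: aaactgcaatactctttcAGcatggggctg
The CCNL1 intron (chr3:156876765-156877193, minus strand) is 429 bases long with 41.0% GC, the SRSF5 intron (chr14:70234705-70234854, plus strand) is 150 bases with 37.3% GC, and the PNISR intron (chr6:99857221-99858616, minus strand) is 1396 bases with 31.0% GC. All 3 are thus less rich in GC than the median kept intron.

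In CCNL1, the gene of cyclin L1, the isoform that keeps this intron (ENST00000466101.1) was at 3.22, 3.63 and 2.91 FPKM in phospho-CBX3 fRIP and at 14, 13.5 and 14 FPKM in CBX3 fRIP. The log2 difference was -1.81 (SE 0.27, limma adjusted p = 2.2e-06), with no overlap between the groups. For SRSF5, an SR protein, the corresponding isoform (ENST00000555412.1) was at 5.56, 2.63 and 7.46 FPKM against 16.1, 18.9 and 13.3 FPKM, a log2 difference of -1.53 (SE 0.33, limma adjusted p = 0.00086). The PNISR isoform (ENST00000463021.1) was at 11.9, 8.39 and 10.2 FPKM against 22.9, 25.6 and 21.9 FPKM, a log2 difference of -1.14 (SE 0.17, limma adjusted p = 2.8e-06). As whole genes these 3 were not called: the log2 differences were -0.70 for CCNL1, -0.66 for SRSF5 and -0.64 for PNISR. The whole SRSF5 intron is short enough to print:
SRSF5 intron: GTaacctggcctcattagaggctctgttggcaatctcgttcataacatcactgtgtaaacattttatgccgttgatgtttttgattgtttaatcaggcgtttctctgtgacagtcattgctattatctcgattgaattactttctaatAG

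How much intron an isoform holds went with how often it was lower, up to a point. This was examined after the counts above had been seen, over 21740 isoforms of coding genes other than protein coding ones. Among retained intron isoforms, those with over 0% and up to 20% of their bases in introns of coding isoforms were called lower in 16.2% of cases, those with 20% to 40% in 24.7%, those with 40% to 60% in 27.7%, those with 60% to 80% in 21.6%, and those with over 80% in 10.2%. Isoforms without a defined coding sequence went from 3.21% with no intronic base to 10.4% at 40% to 60%, and to 4.63% over 80%. The order was the same in each replicate up to 40%: median log2 differences of retained intron isoforms from the CBX3 mean were -0.43, -0.48 and -0.43 at up to 20% and -0.63, -0.72 and -0.64 at 20% to 40%. They then were -0.69, -0.74 and -0.64 at 40% to 60% and -0.48, -0.39 and -0.38 over 80%. Isoforms made nearly wholly of intronic bases were thus less often called lower than those that join intron to exon. FPKM of isoforms are estimates that divide shared fragments among the isoforms of a gene, and isoforms of 1 gene are not independent.

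**Figure D3:**
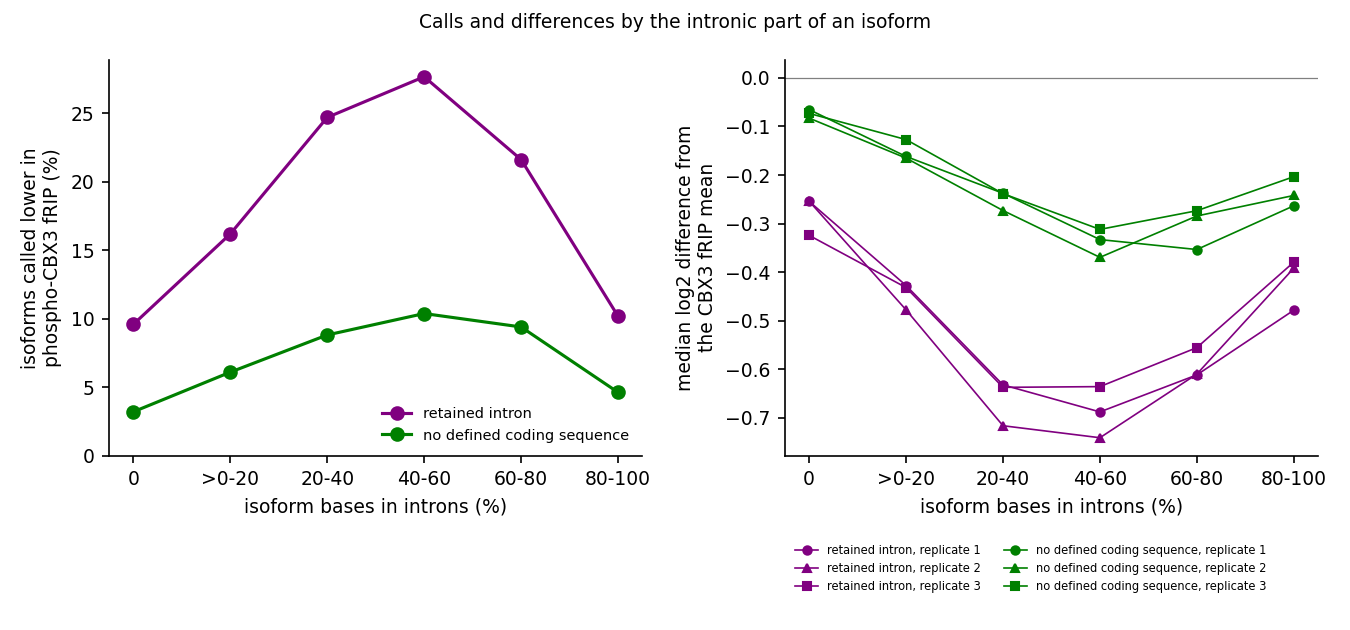
Left, retained intron isoforms (purple) and isoforms without a defined coding sequence (green) called lower in phospho-CBX3 fRIP, in percent, by the part of their bases that lies in introns of coding isoforms (horizontal axis, percent). Right, median log2 difference of each phospho-CBX3 replicate from the CBX3 mean in the same classes, lowest for retained intron isoforms at 40% to 60% in replicates 1 and 2.

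Some genes were held mainly in different isoforms in each fRIP. Of 79917 isoforms in genes of at least 10 FPKM in both groups, 14023 had a lower and 7264 a higher share of their gene in every phospho-CBX3 library than in every CBX3 library. Among those with the largest differences was the coding isoform ENST00000037869.3 of FAM136A, with 70.9%, 75.5% and 80.8% of the gene in phospho-CBX3 fRIP and 43.7%, 18.4% and 29.1% in CBX3 fRIP. The FAM136A retained intron isoform ENST00000460307.1 had 23.2%, 20.5% and 11.7% against 44.5%, 70.6% and 62.5%, and its FPKM were lower with a log2 difference of -1.68 (limma adjusted p = 3.5e-06). In RPP21, a subunit of ribonuclease P, ENST00000442966.2 had 64.4%, 71.3% and 48.1% against 1.72%, 8.42% and 14.9%. Between 2 coding isoforms of the pseudouridine synthase gene RPUSD1, ENST00000007264.2 had 45.5%, 63.2% and 61.3% against 0.879%, 0.00604% and 8.41%, and ENST00000561734.1 had 17.0%, 7.57% and 12.9% against 64.7%, 55.7% and 51.0%. The GTF2A1 coding isoform ENST00000434192.2, of a general transcription factor, had 0.000319%, 10.2% and 6.66% against 46.1%, 37% and 52.3%. The FPKM of the isoforms named so far in this paragraph passed the limma call. Those of IARS2 and ZFAND5 did not: ENST00000366922.1 of IARS2 had 100.0%, 94.8% and 71.6% against 50.7%, 48.7% and 27.0%, its isoform ENST00000302637.5 had 0.0235%, 3.42% and 25.6% against 44.6%, 40.7% and 66.7%, and ENST00000488164.1 of ZFAND5 had 39.9%, 27.3% and 34.0% against 75.2%, 76.1% and 70.2%.

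The RNA component of telomerase had the smallest adjusted p among genes higher in phospho-CBX3 fRIP. TERC (chr3:169482308-169482848, minus strand), the RNA that carries the template for telomere repeats, was at 166, 169.6 and 254 FPKM in phospho-CBX3 fRIP and at 37, 24.0 and 31.8 FPKM in CBX3 fRIP. Every phospho-CBX3 library was above every CBX3 library, and the log2 difference was 2.62 (SE 0.23, limma adjusted p = 7.3e-12). Its mean over the 9 input libraries was 69.8 FPKM. None of its 25-base stretches occurred in the transcripts of other genes. The first 100 bases of the 541-base gene are shown with the template, bases 46 to 56, in capitals.
TERC: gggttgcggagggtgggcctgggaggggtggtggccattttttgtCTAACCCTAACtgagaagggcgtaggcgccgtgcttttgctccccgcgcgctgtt

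TERC carries a box H/ACA domain, as do the H/ACA small nucleolar RNAs, which guide pseudouridylation. Of 7 entries listed as such RNAs and tested, 2 were called higher and 1 lower, beside 0.35% and 2.44% of all genes. The lower one, SNORA67, is annotated as a lncRNA. SNORA71A (chr20:37055952-37056085, minus strand) was at 492, 613 and 983 FPKM in phospho-CBX3 fRIP against 94.0, 109 and 165 FPKM, a log2 difference of 2.48 (SE 0.50, limma adjusted p = 0.00034). Its 134 annotated bases end in ACA, in capitals, and whether these bases are the ACA box was not tested.
SNORA71A: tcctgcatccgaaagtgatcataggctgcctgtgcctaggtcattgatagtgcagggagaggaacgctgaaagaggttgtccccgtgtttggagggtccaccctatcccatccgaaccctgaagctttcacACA
Every 25-base stretch of SNORA71A is also found in another gene's transcripts, and it lies within its host gene SNHG17, which was itself called higher at 79.5, 102 and 137 FPKM against 52.3, 36.0 and 68.8 FPKM (log2 difference 1.02). SNORA71B, from the same host, was at 171, 55.2 and 88.4 FPKM against 31.6 FPKM in 1 CBX3 library and is listed at 0 in the other two. SNORA71B was not called without phospho-CBX3 replicate 1, CBX3 replicate 2 or CBX3 replicate 3, and SNHG17 was not called without phospho-CBX3 replicate 3 or CBX3 replicate 2. The entry named SNORA67 was lower at 2.42, 0.812 and 1.89 FPKM against 6.29, 5.83 and 4.86 FPKM. It is annotated here as a lncRNA with a transcript of 12 exons and 4554 bases, not as a small nucleolar RNA. Its annotated span holds EIF4A1 and CD68, and 85.2% of its 25-base stretches occur in other genes. The remaining 4 were not called, and the 6 box C/D small nucleolar RNAs, which guide methylation, had 0 calls (1 higher after centring), with SNORD56 at 743 FPKM in phospho-CBX3 replicate 2 and listed at 0 in the other 5 libraries. Of 5 small Cajal body RNAs, SCARNA9, which lies within CEP295, was called lower at 24.3, 24.1 and 26.8 FPKM against 63.1, 100.4 and 73.0 FPKM (log2 difference -1.59, SE 0.33). Of 9 Pol III and other structured RNAs, TERC alone was called (2 were higher after centring), and RMRP, the RNA of ribonuclease MRP, was at 3190.1, 3847 and 4366 FPKM against 2917, 2230.3 and 3064 FPKM (log2 difference 0.48, limma adjusted p = 0.072). RPPH1, the RNA of ribonuclease P, was at 1112, 1149 and 1223 FPKM against 852, 659 and 865 FPKM (log2 difference 0.56, limma adjusted p = 0.094). Neither RMRP nor RPPH1 overlapped between the groups, beside 8.04% of all genes that were higher in every phospho-CBX3 library. Both were named after their values were seen.

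LINC00657, now named NORAD (chr20:34633540-34638940, minus strand), was the lncRNA with the next smallest adjusted p. This abundant lncRNA, which binds Pumilio proteins, was at 102, 95.1 and 95.4 FPKM in phospho-CBX3 fRIP and at 34.3, 34.0 and 32.5 FPKM in CBX3 fRIP. The spread within each target was far smaller than the gap, and the log2 difference was 1.51 (SE 0.15, limma adjusted p = 5.7e-10), although 64.0% of its 25-base stretches are shared with other genes. LINC00657 was placed in a list of nuclear retained lncRNAs, although it is known mainly from the cytoplasm, and no other member of that list was called. NEAT1, the scaffold of paraspeckles, was at 74.2, 62.4 and 88.2 FPKM against 143, 117 and 179 FPKM (log2 difference -0.95), and the median over the 15 lncRNAs was -0.37, or -0.17 after centring. MALAT1, which had the highest mean FPKM over the 6 libraries, was at 2666, 3037 and 2609 FPKM against 4569.9, 4916 and 4060 FPKM without overlap, but the fit gave a log2 difference of -0.70 with an SE of 1.31. Other lncRNAs higher in phospho-CBX3 fRIP were LINC00273, at 9.46, 27.0 and 84.1 FPKM against 3.94, 1.53 and 2.29 FPKM, the MIR663A host transcript, at 98.4, 81.5 and 184 FPKM against 36.9, 31.1 and 46.2 FPKM, and RP11-521L9.1, at 14.9, 13.4 and 13.7 FPKM against 4.47, 6.23 and 2.37 FPKM. Of these RP11-521L9.1 lost its call in 8 alternative settings, and the MIR663A host transcript without phospho-CBX3 replicate 3. They share 69.5% and 37.4% of their 25-base stretches with other genes.

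Among the mRNAs called higher, LRBA, a vesicle trafficking protein, was at 164, 193 and 207 FPKM in phospho-CBX3 fRIP against 62.8, 57.1 and 93.3 FPKM (log2 difference 1.42, SE 0.17). VPS13C, a lipid transfer protein, was at 136, 112 and 82.4 FPKM against 40.4, 46.1 and 44.3 FPKM (1.29, SE 0.16). In both genes the coding isoforms were the ones that were higher, with log2 differences of 1.64 and 1.74. The zinc finger gene ZNF407 was at 26.4, 25.8 and 26.8 FPKM against 7.63, 7.60 and 9.12 FPKM (1.59, SE 0.19), and ZNF518A was at 62.7, 81.8 and 74.1 FPKM against 34.0, 26.8 and 29.2 FPKM (1.25, SE 0.14). LIG4, the ligase of DNA end joining, was at 17.1, 19.9 and 19.0 FPKM against 7.73, 6.71 and 6.42 FPKM (1.31, SE 0.18). RANBP6, an importin family gene made of 1 exon, was at 20.8, 21.2 and 21.9 FPKM against 8.74, 8.26 and 8.21 FPKM (1.25, SE 0.17). SCAND3 was at 158, 195 and 143 FPKM against 81.7, 70.2 and 61.4 FPKM (1.20, SE 0.25). These 7 genes were taken from those whose groups do not overlap. Each kept its call in every alternative other than the fits of the 6 libraries alone. LRBA overlaps MAB21L2, VPS13C overlaps RN7SL613P, ZNF407 overlaps ZNF407-AS1, ZNF518A overlaps BLNK and SCAND3 overlaps ZBED9-AS1 on the other strand. TENM1 overlaps STAG2 in the same way, and COMMD3-BMI1 and C1orf134 share 96.6% and 89.9% of their 25-base stretches with other genes. The FPKM of genes with such overlaps or shared stretches are uncertain. The gene FP15737, which had no match in the annotation, was at 24.9, 12.1 and 9.88 FPKM in phospho-CBX3 fRIP and at 0.000264 FPKM or less in CBX3 fRIP.

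**Figure D4:**
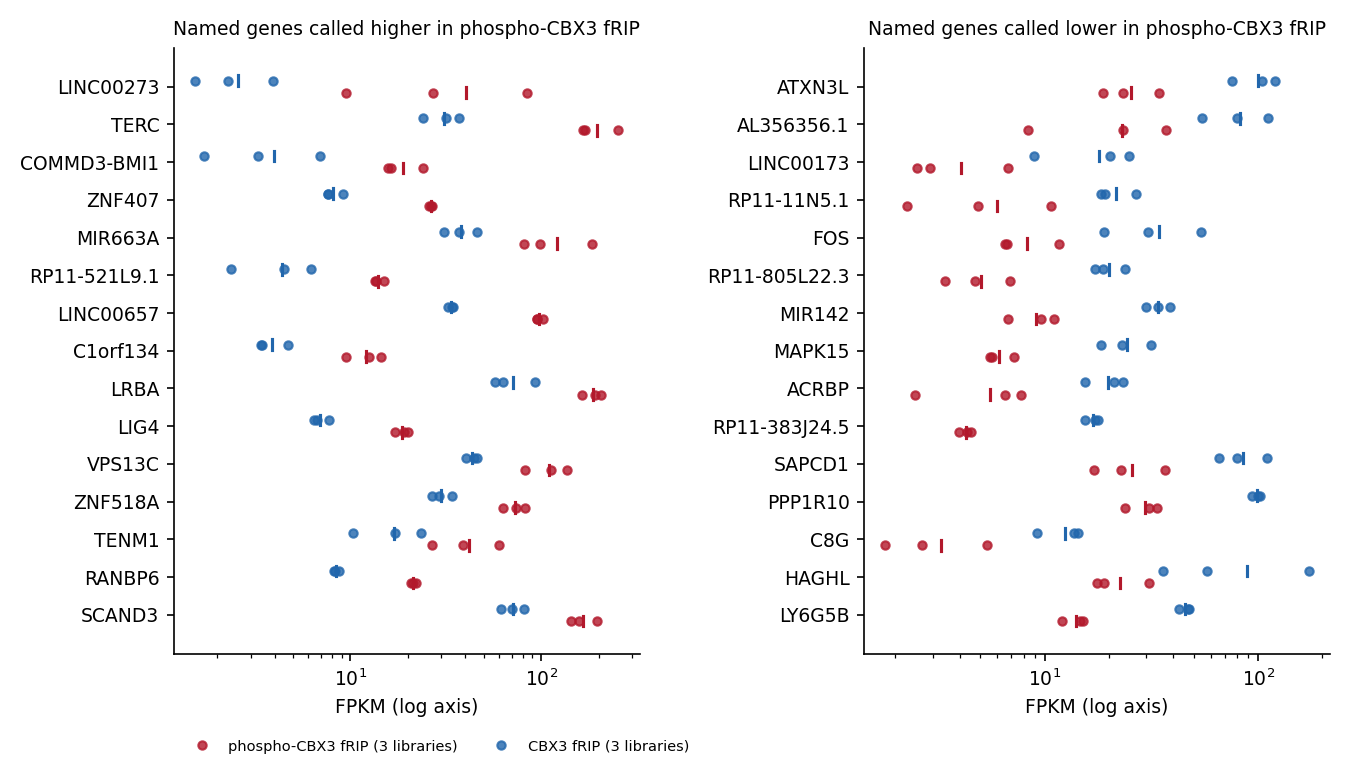
FPKM (horizontal log axis) of the 10 mRNA and 5 lncRNA genes with the largest change in each direction among called genes of at least 5 FPKM whose libraries do not overlap. Each point is 1 library, red for phospho-CBX3 and blue for CBX3, and the bar is the mean of 3, and TERC, LINC00657, RANBP6 and PPP1R10 show gaps wide beside the spread.

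Among the genes called lower, PPP1R10 (chr6:30568190-30586389, minus strand), which encodes PNUTS, a nuclear targeting subunit of protein phosphatase 1, was at 23.8, 30.7 and 33.8 FPKM in phospho-CBX3 fRIP and at 100.1, 102 and 93.6 FPKM in CBX3 fRIP. Its log2 difference was -1.73 (SE 0.17, limma adjusted p = 4.5e-10), the smallest adjusted p among lower genes named here. CLK2 (chr1:155232659-155248282, minus strand), a kinase of SR proteins, was at 51.3, 38.7 and 49.7 FPKM against 116, 131 and 149 FPKM (log2 difference -1.49, SE 0.17, limma adjusted p = 3.5e-09). SREBF1 was at 131, 91.6 and 135 FPKM against 228, 252 and 267 FPKM (log2 difference -1.07, SE 0.17), and was not called after either centring or without phospho-CBX3 replicate 2. ZNF692 was at 76.4, 56.0 and 82.9 FPKM against 143, 172 and 185 FPKM (log2 difference -1.22, SE 0.19). MAPK15, a mitogen-activated protein kinase, was at 5.70, 5.55 and 7.17 FPKM against 18.4, 23.1 and 31.6 FPKM, and LY6G5B was at 15.2, 12 and 14.7 FPKM against 47.6, 46.9 and 42.4 FPKM. The libraries of the 2 targets did not overlap in any of these 6 genes, which was a condition for naming PPP1R10, MAPK15 and LY6G5B. LY6G5B overlaps CSNK2B and shares 48.8% of its 25-base stretches with other genes, and PPP1R10 overlaps MRPS18B, CLK2 overlaps HCN3 and SREBF1 overlaps RAI1 on the other strand, so their FPKM are uncertain.

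Of 27 immediate early mRNAs, which respond within minutes to growth signals, 3 were called lower (beside 2.44% of all genes) and 0 higher, or 1 lower after centring, and the median log2 difference was -0.42 (-0.22 after centring). FOS, a subunit of the AP-1 transcription factor, was at 6.55, 11.7 and 6.71 FPKM against 53.9, 19.1 and 30.6 FPKM (log2 difference -1.85, SE 0.61, limma adjusted p = 0.035), and lost its call in 7 settings. ZFP36, an RNA-binding protein that destabilises messages, was at 2.07, 2.33 and 2.90 FPKM against 8.25, 7.67 and 6.35 FPKM (log2 difference -1.30). Its relative ZFP36L1 was at 5.6, 7.72 and 7.22 FPKM against 15.0, 14.5 and 19.4 FPKM (log2 difference -1.14), a call that 1 of the centrings removed. Of the 27, 12 were lower in every phospho-CBX3 library than in every CBX3 library, beside 18.5% of all genes.

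Other lower genes were lncRNAs, antisense RNAs and overlapping genes. The MIR142 host transcript, from which the blood cell microRNA miR-142 is made, was at 9.63, 6.72 and 11.1 FPKM against 29.8, 38.9 and 33.8 FPKM (log2 difference -1.81). LINC00173 was at 6.78, 2.52 and 2.91 FPKM against 20.1, 24.7 and 8.88 FPKM, RP11-11N5.1 at 10.7, 4.90 and 2.26 FPKM against 18.5, 26.8 and 19.2 FPKM, and RP11-383J24.5 at 4.54, 3.96 and 4.33 FPKM against 15.5, 17.2 and 17.7 FPKM. LINC00173 was not called without CBX3 replicate 2. Antisense lncRNAs had 16 of 441 called lower and 0 higher, near the 3.45% of all lncRNAs called lower, and 4 lower after centring. Among the 16 were MYB-AS1 at 2.43, 10.8 and 13.7 FPKM against 29.8, 15.9 and 31.4 FPKM, MFI2-AS1 at 10.3, 3.70 and 4.01 FPKM against 17.1, 38.6 and 12.8 FPKM, and ALG13-AS1, listed at 0 in the 3 phospho-CBX3 libraries and at 1.49, 5.80 and 1.82 FPKM in CBX3 fRIP. ALG13-AS1 lost its call in 5 settings, centring among them, MFI2-AS1 in 2 and MYB-AS1 in 1. Intergenic lncRNAs named LINC had 2 of 153 called higher and 5 lower, beside 0.28% and 3.45% of all lncRNAs. ATXN3L was at 34.2, 23.2 and 18.8 FPKM against 105, 120.2 and 75.7 FPKM, with 57.4% of its 25-base stretches in other genes, and AL356356.1, SAPCD1 and HAGHL overlap other genes, with HAGHL resting in part on 1 CBX3 library at 172 FPKM and AL356356.1 losing its call in 7 settings. The TruSeq kit named in the study's methods does not mark strand, so antisense genes and their partners cannot be told apart.

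Most mRNA groups differed little as whole genes, even where their retained intron isoforms did. CBX3 mRNA was at 145, 181 and 181 FPKM in phospho-CBX3 fRIP and at 199, 173 and 193 FPKM in CBX3 fRIP, with overlapping libraries (log2 difference -0.16, SE 0.14, limma adjusted p = 0.55). None of 30 genes of the HP1 and H3K9 methylation machinery was called, with a median of -0.03 and a range from -0.96 (DAXX, a histone chaperone) to 0.59 (ATRX, its partner). DAXX was at 31.6, 32.1 and 40.1 FPKM against 60.2, 61.3 and 84.8 FPKM. TRIM28, the KAP1 corepressor that recruits HP1, was at 576, 481 and 686 FPKM against 471, 503 and 601 FPKM, also with overlap. Zinc finger mRNAs had 1 of 225 called lower and 0 higher on chromosome 19 (ZNF414, at 2.67, 1.01 and 3.31 FPKM against 5.62, 9.86 and 8.26 FPKM), and 3 of 224 called higher and 2 lower on other chromosomes, beside 0.31% higher and 2.07% lower of all mRNAs. After centring, 2 were called higher and 1 lower on chromosome 19.

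The SR protein mRNAs had 0 of 13 called, but their median was -0.42 (-0.22 after centring) and 8 of them were lower in every phospho-CBX3 library than in every CBX3 library, beside 18.5% of all genes. SRSF2 was at 89.7, 76.4 and 94.6 FPKM against 151, 175 and 172 FPKM (log2 difference -0.93, limma adjusted p = 0.0069). The detained intron genes had 1 of 20 called, CLK2, and a median of -0.43 (-0.23 after centring), with 12 lower in every library and 0 higher, beside 2.44% of all genes called lower and 18.5% lower in every library. Erythroid and hematopoietic regulators had 0 of 14 called and a median of -0.44 (-0.24), and the coregulator LDB1 was at 65.8, 53.5 and 62.9 FPKM against 120, 106 and 112 FPKM. Globin mRNAs had 0 of 9 called and a median of 0.40, and none of them differed without overlap. Mitochondrially encoded mRNAs had 0 of 13 called, all with positive log2 differences from 0.23 to 0.57, and 8 of 13 were higher in every phospho-CBX3 library, beside 8.04% of all genes.

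Several groups of abundant housekeeping mRNAs had small positive medians and 0 calls by limma without centring. After centring, 2 translation factor mRNAs, 1 ribosomal protein mRNA and 1 heat shock mRNA were called higher. Among 82 cytosolic ribosomal protein mRNAs, 0 were called, the median was 0.09, 27 were higher in every phospho-CBX3 library and 13 lower, beside 8.04% and 18.5% of all genes. RPS3 was at 1212, 1189.9 and 991 FPKM against 673, 702 and 682 FPKM (log2 difference 0.72, SE 0.17, limma adjusted p = 0.0028), which did not pass the limit on size. EEF1A1 was at 1493, 1264 and 1288 FPKM against 651, 719 and 708 FPKM (log2 difference 0.96, SE 0.18, limma adjusted p = 0.00011), likewise just under it. RPS3 and EEF1A1 share 58.2% and 46.4% of their 25-base stretches with other genes. The 22 translation factor mRNAs had a median of 0.18, the 37 proteasome mRNAs 0.18 and the 84 respiratory chain mRNAs 0.15, with 0 calls each. There were also 0 calls among 27 nucleoporin mRNAs (median 0.10), 58 centrosome and kinesin mRNAs (0.01), 22 hnRNP mRNAs (-0.08) and 40 heat shock and chaperone mRNAs (0.07). Of 23 cholesterol synthesis and uptake mRNAs, SREBF1 was the 1 called. Histone genes had 1 of 76 called higher (HIST1H2AB, with overlapping libraries) and 2 lower (HIST1H1PS1 and HIST1H2BH), beside 0.35% and 2.44% of all genes. HIST1H2AB lost its call in 6 settings, HIST1H2BH in 4, both centrings among them, and HIST1H1PS1 in 2. Of the 17 snoRNA host genes 1 was called higher, SNHG17, with a median of -0.20 over the 17. All these medians stand beside -0.08 over all genes, and centring raised each of them by 0.20, which turned those of the HP1 machinery and the hnRNP mRNAs positive.

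By class, small RNAs made up a larger part of summed FPKM in phospho-CBX3 fRIP, and SNORA71A and SNORA71B of the SNHG17 locus carried most of the difference. Small RNAs took 0.188%, 0.173% and 0.258% of summed gene FPKM in phospho-CBX3 fRIP and 0.0704%, 0.0307% and 0.0414% in CBX3 fRIP. The groups did not overlap (exact two-sided permutation p = 0.1, the smallest possible). Of 11 small RNAs, 2 were called higher, both of the SNHG17 locus, beside 0.35% of all genes. Without SNORA71A and SNORA71B, a setting chosen after the data were seen, the class took 0.0507%, 0.0371% and 0.0368% against 0.0453%, 0.00893% and 0.00981%, which overlap (exact p = 0.3). LncRNAs took 5.99%, 5.65% and 5.61% against 6.63%, 6.70% and 6.35%, a difference of -0.80 percentage points (exact p = 0.1), and -0.41 without the 10 genes of highest mean. The mRNAs took 85.7%, 83.4% and 87.1% against 85.7%, 86.7% and 86.9%, which overlap. Mitochondrial RNA took 2.07%, 4.63% and 1.32% against 1.83%, 1.45% and 1.42%, so phospho-CBX3 replicate 2 stood above the others.

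The log2 difference of an mRNA went with the GC content of its transcript. Over 11197 mRNA genes with at least 1 FPKM in both groups, the Spearman correlation across genes, which are not independent replicates, was -0.20, -0.46 and -0.23 for the 3 phospho-CBX3 libraries against the CBX3 mean, which the 3 values share. For the mean of the 3 it was -0.35, and without replicate 2, a setting chosen after the data were seen, it was -0.25. The 265 mRNAs called lower among these genes had a median GC content of 59.5% and a length of 1686 bases, the 39 called higher 42.1% and 4065 bases, and all mRNAs 48.5% and 2499 bases. Split into 5 groups from low to high GC, lower calls numbered 6, 10, 27, 77 and 145, and higher calls 17, 9, 8, 2 and 3. For the mean of the 3, correlations were 0.11 with transcript length, -0.01 with exon number and 0.16 with input FPKM. By library they were 0.17, 0.06 and 0.07 for length and -0.03, 0.19 and 0.24 for input FPKM, which in replicate 3 was as large in size as that with GC content. Among 4096 sequences of 6 bases, AAAATT (0.25), AATATT (0.25) and ATATTT (0.25) correlated highest with the log2 difference, and CCCCAG (-0.25) lowest. Of the 20 highest, 15 held no G or C, and each of the 20 lowest held at least 5. Sequences of equal GC content also differed among themselves, from -0.25 to 0.02 among those with 5 G or C bases and from -0.22 to -0.0032 among those with 6.

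GC content also went with the retained intron share. In the 5 GC groups the median share was 10.8%, 10.3%, 11.8%, 17.6% and 20.4% in phospho-CBX3 fRIP and 18.6%, 17.9%, 21.3%, 29.0% and 33.8% in CBX3 fRIP. The median of the difference in each gene was -6.13, -6.20, -7.37, -10.2 and -10.7 percentage points, so it was present in all 5 groups. In points it was larger where GC was high, but there the share was also higher in both targets. Whether the difference changed with GC relative to the share was not tested. The part of GC content in the calls was otherwise not tested.

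**Figure D5:**
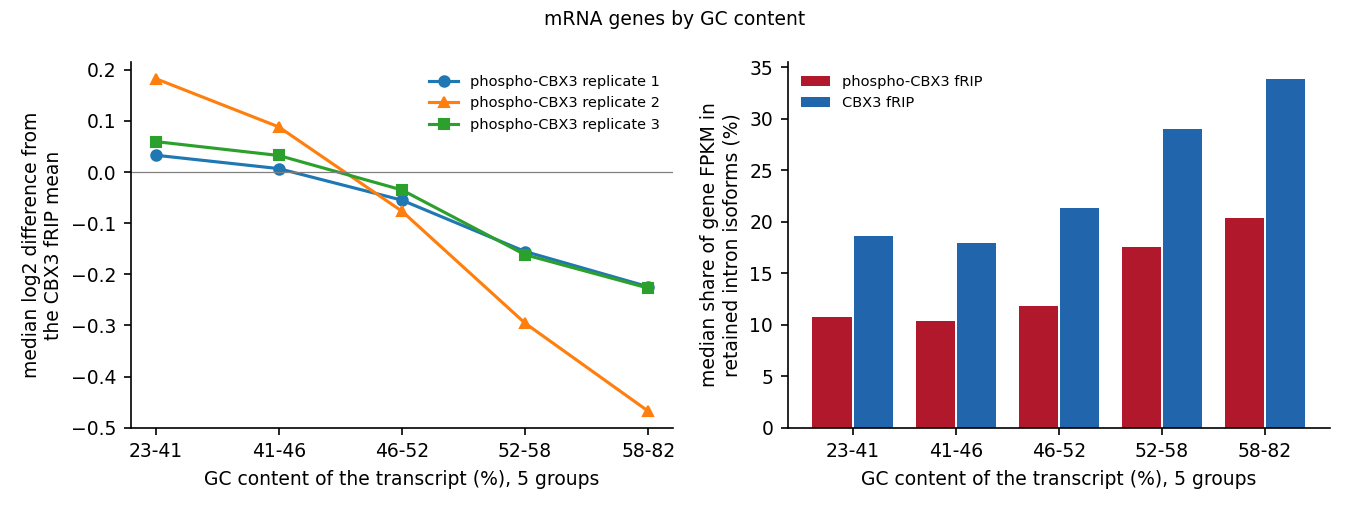
Left, median log2 difference of each phospho-CBX3 replicate from the CBX3 mean in 5 groups of mRNA genes from low to high GC content of the transcript (horizontal axis, percent), with replicate 2 changing most, from 0.18 to -0.47. Right, median share of gene FPKM in retained intron isoforms in the same groups, as bars for the mean of phospho-CBX3 (red) and of CBX3 fRIP (blue), with the red bar lower in each group.

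Set beside all 276 pairs of proteins, phospho-CBX3 and CBX3 were among the more alike. Their 711 called genes had rank 8 from the fewest, with 221 for the closest pair, NUP98 and PCAF, and the Pearson correlation of their mean profiles (0.978) had rank 7. After centring they had 474 calls and rank 4. Without centring CBX3 had 1309 calls against CBP, its next closest protein by calls, and with it 1755 against CBP and 1408 against CHD7. Without centring phospho-CBX3 had 762 against CHD7, 937 against CHD1 and 948 against CTCF. These pairs share libraries, and the number of calls also depends on depth and on the spread within each target.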

How the data were processed

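RNA of 3 phospho-CBX3 and 3 CBX3 fRIP libraries was compared, with 9 input libraries used for the abundance of genes. The authors depleted ribosomal RNA, sequenced paired ends on an Illumina HiSeq and used TopHat for alignment (hg19) and Cuffdiff 2 for abundances over GENCODE v18. They deposited FPKM of genes and of isoforms for each library. The submitters' processing notes also name CASAVA 1.4 and Cuffnorm, without their roles. The TruSeq kit does not mark strand. Not given in the sources used here were scaling between libraries and filters on reads. The deposited table of the authors' own comparisons (fRIP against input fold changes and p-values) was not used.

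Groups were taken from the sample titles. The members and the gene lists were chosen with earlier results of these data known. With limma 3.58.1 in R 4.3.3, log2(FPKM + 1) of all 79 libraries was fitted with an intensity trend and a mean for each protein and each input set, for features that reached 1 FPKM in 2 or more libraries. A call needed a Benjamini-Hochberg adjusted p under 0.05 over all features and a log2 difference beyond 1 in size, and on this scale changes of low genes are understated. The fit was also run on simulated data drawn with its own estimates of spread. Such data cannot test whether a spread shared by 79 libraries suits these 6. Alternatives changed the pseudocount, the filter or the centring, fitted the 6 libraries alone with and without the replicate number, or left out 1 library at a time. Exact permutation tests were two-sided, and with 3 against 3 libraries their smallest p is 0.1. Classes, isoform types, coordinates and sequences came from GENCODE v44 lifted to GRCh37, the same assembly, which matched 46055 of 48453 genes and 172143 of 185661 isoforms (92.7%). Tables were made with Python 3.11.15, pandas 2.3.3, numpy 2.4.6 and scipy 1.17.1.

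Genes named one by one were, in each direction and among called genes of at least 5 FPKM whose libraries do not overlap, the 10 mRNAs, 5 lncRNAs and 3 others with the largest change. Also named were CBX3, up to 3 called members of each of 27 gene lists in each direction or else its most abundant member, and the 5 isoforms in each direction with the largest change in their share of a gene, without overlap, in genes of at least 10 FPKM in both groups. RMRP, RPPH1, NEAT1, MALAT1, DAXX, ATRX, SRSF2, LDB1, CCNL1, SRSF5 and PNISR are outside this rule and were named after their values were seen. Some genes that the rule names enter the text only through the counts and the plots, and some are not reported here.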

Additional observations from a re-analysis of the deposited data

How the results depend on the processing

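The share of gene FPKM in retained intron isoforms kept its direction under every alternative run, with differences of -10.5 to -9.52 percentage points for the median and -9.57 to -8.62 for the mean. The share of lower isoform calls that are retained intron isoforms was 51.1% to 61.1% in all settings that gave calls. Counts of calls moved more. For genes, a pseudocount of 0.1 FPKM gave 137 higher and 945 lower, centring on the median of tested genes 218 and 256, and a fit of only the 6 libraries 34 and 236. For isoforms, the same centring gave 3013 higher and 3308 lower and the 6 libraries alone 350 and 1934. Leaving out each library in turn gave 69 to 114 genes higher and 489 to 746 lower, and 844 to 1217 isoforms higher and 5627 to 7334 lower.

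The deviations of libraries with the same replicate number from their group means correlated at -0.05, -0.06 and 0.23, so the numbers were not taken to pair the libraries, and not every library correlated best with its own number. With the number as a replicate block in the 6 libraries, limma called 0 genes and 0 isoforms in either direction, while 1463 genes were higher and 3752 lower at an unadjusted p under 0.05, and 4478 isoforms were higher and 13494 lower. The fits of 6 libraries have fewer residual degrees of freedom than that of 79.

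The small RNA share differed by 0.0202 percentage points without SNORA71A and SNORA71B. The lncRNA share differed by -0.41 percentage points without the 10 genes of highest mean, and the correlation with exon number was -0.054 over mRNAs of at least 10 FPKM. Of 55 named genes called, 12 were not called without phospho-CBX3 replicate 2, 11 without CBX3 replicate 3 and 28 in the 6 libraries alone. The cause of these changes was not tested. The smallest permutation p of 3 against 3 libraries is 0.1, and values near 1 FPKM rest on few fragments.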
